A study of Sus scrofa with 6 samples.

Results

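The enzymes that place methyl groups on lysine 4 of histone H3 (H3K4), and the subunits that most of them share, were followed in messenger RNA of 8-cell embryos of the pig (Sus scrofa). The 10 genes are KMT2A, KMT2B, KMT2C, KMT2D, KMT2E, SETD1A, SETD1B, ASH2L, WDR5 and DPY30. They were chosen by gene name, all 10 were found, and they are 10 of the 29874 genes in the deposited table. The control group had 3 libraries and the knockdown group had 3, the latter from embryos that the labels describe as injected with siRNA against a transcript called LncT. The siRNA was placed in the cytoplasm, and the labels do not say what the controls received, how many embryos made up a library, or whether replicates came from separate collections. The p-values therefore measure the spread between these libraries, which may be technical. The knockdown values come from columns headed SL, tied to the titles siL by that abbreviation alone. If SL stood for another siRNA, the comparison would be of that siRNA. The level of LncT itself was not analysed here, and the study's title names epigenetic reprogramming as its subject.

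H3K4 methylation marks promoters and enhancers that are active or poised, and it is erased and rewritten as the embryo passes from egg to its own transcription. The writers work as complexes named COMPASS, in which a catalytic subunit of the KMT2 or SETD1 type is bound by a common core of WDR5, RBBP5, ASH2L and DPY30. The SETD1 enzymes give most of the trimethylation at promoters, KMT2A and KMT2B act at selected promoters such as those of developmental genes, and KMT2C and KMT2D add the monomethyl mark at enhancers. In mouse, KMT2B is the main writer of the mark in the growing oocyte.

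Control 3 stood apart from controls 1 and 2 in these libraries. Its Spearman correlation over the 10417 genes tested was 0.611 and 0.655 with controls 1 and 2, against 0.900 to 0.941 with the knockdowns. Controls 1 and 2 correlated at 0.922. The label of control 3 was taken as given, and an exchange of labels was not tested, since the level of LncT was not analysed here. Oocyte and maternal transcripts, summed over 23 genes in the table, reached 7492 and 7128 FPKM in controls 1 and 2, against 2207 in the third control and 3107 to 3936 among knockdowns. FPKM is a fragment number scaled for transcript length and library size. Of those 23 genes, 0 were at 0 in every library. Genes known to rise at genome activation, again 23, summed to 371 and 624 FPKM in controls 1 and 2, against 1656 in the third control and 1543 to 1673 among knockdowns, with ZSCAN4 listed at 0 throughout. Not all of the list followed this course. DUXA, the largest in control 1, measured 252, 303 and 287 FPKM across the controls, against 358, 299 and 267 across the knockdowns. HSPA8 and NOP58 rose most in FPKM, from 19.7 and 15.2 in control 1 to 535 and 298 in control 3. Cumulus and granulosa cell markers (14 in the table) summed to 7.99 to 9.74 FPKM in controls and 9.25 to 12.6 in knockdowns, and CYP11A1, FOXL2 and LUM were listed at 0 in every library. INHBA was the largest part of each sum, at 7.87, 6.28 and 4.80 FPKM across the controls against 4.34, 5.66 and 5.52 across the knockdowns. TNFAIP6, VIM and STAR were lowest in controls 1 and 2, and CYP19A1 and GATM were not, so the sum hides opposite courses. VIM measured 0.04, 0.325 and 1.36 FPKM across the controls, against 1.24, 0.867 and 1.95 across the knockdowns. Relative depth, as deposited coverage divided by FPKM, ran from 6.29 to 9.41. Mitochondrial transcripts held 21.7%, 29.1% and 40.8% of TPM across the controls, against 44.0%, 27.5% and 34.1% across the knockdowns. Scaled to transcripts outside the mitochondrial genome, limma still called 0 of all genes tested and 0 members. The comparisons of the 8 tested genes are given with and without control 3. Each library was left out in turn, but control 3 was singled out because of the values above. Its omission removes the control most like the knockdowns, so the p-values without it are a description and not independent support.

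The shared core held the 2 most abundant members. DPY30, a small subunit that docks on ASH2L, and ASH2L, which raises the activity of the catalytic subunit, exchanged places between libraries. With all 6 libraries neither differed beyond the spread of its group. With control 3 left out, a step singled out from these same values, ASH2L passed the test as lower in knockdowns and DPY30 as higher.

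ASH2L (chromosome 15, 48386426 to 48417560, Sscrofa11.1) measured 46.0, 52.0 and 13.6 FPKM across controls 1 to 3, against 18.4, 26.7 and 21.1 across knockdowns 1 to 3. The third control was the lowest of all 6 libraries and the other two were the highest, so the groups overlapped. The control mean was 37.2 ± 20.7 FPKM and the knockdown mean 22.1 ± 4.20 FPKM (SD, n = 3 each). The log2 difference (knockdown less control) was -0.54 ± 0.53 (SE) with a 95% interval of -1.79 to 0.72, and limma's adjusted p was 0.791. All such differences were taken on log2(FPKM + 1), where the added 1 shrinks the changes of weak genes. Without control 3 the difference was -1.13 (95% interval -1.73 to -0.53, limma adjusted p = 0.0174). It was -0.28 without control 1 and -0.20 without control 2, neither of which passed.

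DPY30 (chromosome 3, 107520641 to 107533504) ran the opposite way. It measured 29.7, 36.1 and 82.4 FPKM across the controls, against 66.7, 69.8 and 54.4 across the knockdowns. Controls 1 and 2 were the lowest libraries, and control 3 lay above every knockdown. The control mean of 49.4 ± 28.7 FPKM and the knockdown mean of 63.6 ± 8.17 FPKM (SD, n = 3 each) gave a log2 difference of 0.49 ± 0.43 (SE) with a 95% interval of -0.52 to 1.51 (limma adjusted p = 0.785). Without control 3 it was 0.93 (95% interval 0.36 to 1.50, limma adjusted p = 0.0287), and without control 1 it was 0.21. Among all genes ordered by level in a library, DPY30 moved from rank 1829 and 1567 in controls 1 and 2 to rank 886 in control 3, with the knockdowns at 942 to 1270. ASH2L moved from rank 1275 and 1157 to rank 3424 in control 3, with the knockdowns at 2298 to 2643.

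The balance of these core subunits, which are neighbours in the complex, can be read within each library without regard to its scaling. The plain FPKM ratio of ASH2L to DPY30 was 1.55 and 1.44 in controls 1 and 2. It was 0.165 for the third control, and the knockdowns had 0.276, 0.382 and 0.389. This pair was picked after its values were seen and is a description with no test. In all 4 libraries other than controls 1 and 2, DPY30 stood above ASH2L. The lists of maternal and genome activation genes moved across the same libraries, as given above, and their part in the levels of ASH2L and DPY30 was not tested. In bulk samples, fewer cells of a kind and less RNA per cell cannot be told apart.

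WDR5, the scaffold that links the catalytic subunit to the core, was the weakest of the 3 core genes. It measured 0.42, 0.18 and 0.47 FPKM across the controls, against 0.19, 1.60 and 1.13 across the knockdowns (chromosome 1, 273560274 to 273577827). Knockdowns 2 and 3 were the highest libraries, and knockdown 1 lay between the controls. All of this came from 1 of the gene's 3 rows, annotated as a non-coding transcript, XR_002338166.1. The other rows of the gene were listed at 0 in every library. Mean depth over the non-coding row ran from 1.23 to 15.1 reads per base. WDR5B, a close relative of WDR5 on chromosome 13, measured 1.41, 0.65 and 2.59 FPKM across the controls, against 2.25, 2.04 and 2.69 across the knockdowns, and the sources used here do not say how reads shared by such copies were assigned. With a mean of 0.66 FPKM, WDR5 fell under the minimum of 1 FPKM set for testing, so it has no call in the 6-library comparison. Fitted without that minimum, its log2 difference was 0.48 (95% interval -0.32 to 1.27, limma adjusted p = 0.813).

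**Figure D1:**
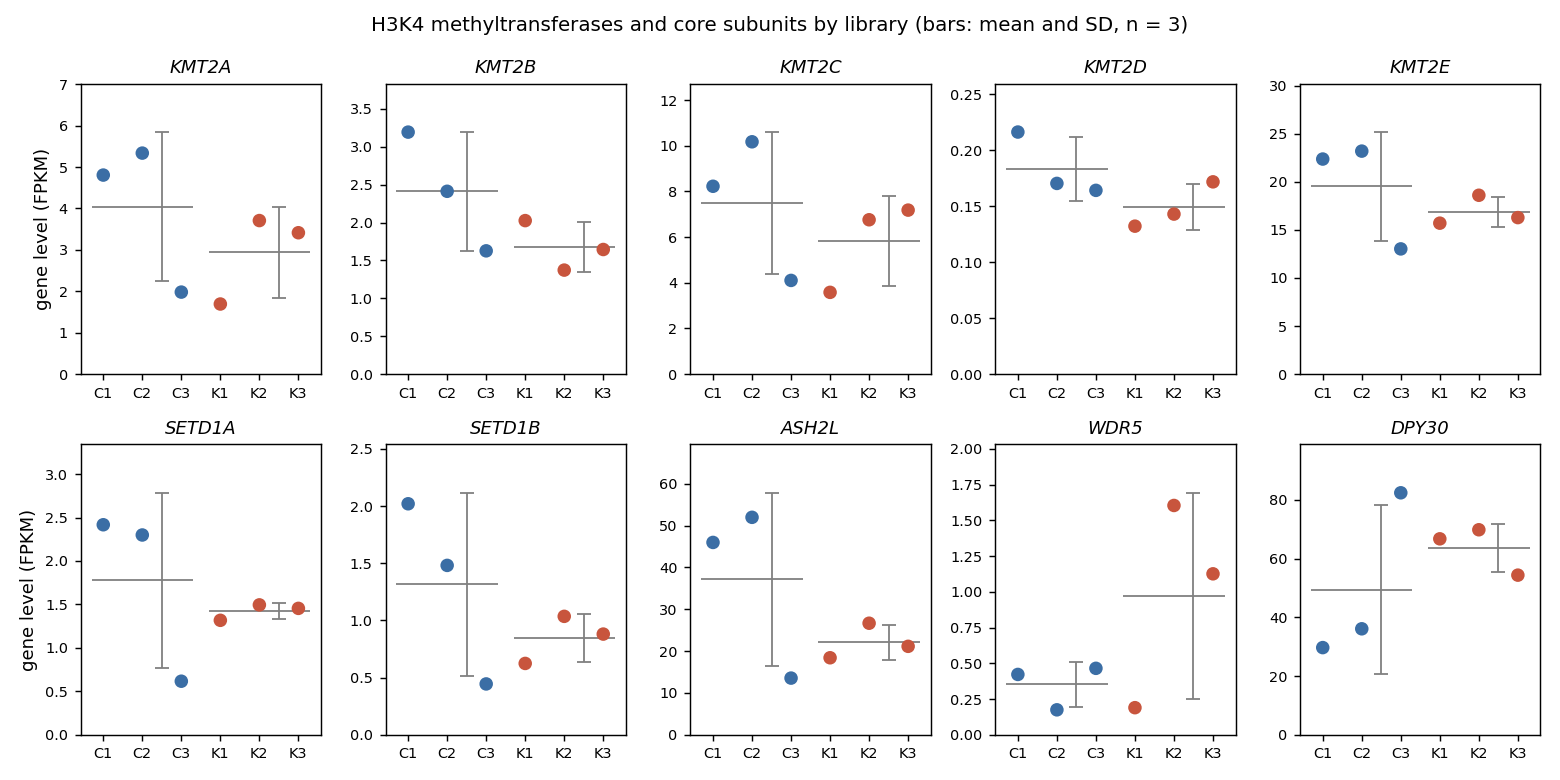
Level of each of the 10 genes (FPKM, axis from 0) in controls C1 to C3 (blue) and knockdowns K1 to K3 (red), with a grey line for each group's mean and a bar for its SD (n = 3). ASH2L and the 2 SETD1 genes are highest in C1 and C2 and lowest in C3, whereas DPY30 is lowest in C1 and C2 and highest in C3.

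Relative to their means, the SETD1 enzymes had the largest SDs in FPKM between control libraries of the catalytic members. SETD1A (chromosome 3, 17463768 to 17490397) measured 2.42, 2.3 and 0.62 FPKM across the controls, against 1.32, 1.50 and 1.45 across the knockdowns. The knockdown values lay close together, at 1.42 ± 0.093 FPKM (SD, n = 3), inside a control range that gave 1.78 ± 1.01 (SD, n = 3). The log2 difference was -0.12 (95% interval -0.96 to 0.72, limma adjusted p = 0.922), and without control 3 it was -0.47 (95% interval -1.03 to 0.087, limma adjusted p = 0.170). Without control 1 or without control 2 its sign turned, to 0.068 and 0.043.

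SETD1B (chromosome 14, 30862155 to 30885592) measured 2.02, 1.48 and 0.45 FPKM across the controls, against 0.62, 1.04 and 0.88 across the knockdowns. Controls 1 and 2 were above every knockdown and control 3 was below every one. Means of 1.32 ± 0.80 and 0.85 ± 0.21 FPKM (SD, n = 3) gave a log2 difference of -0.27 (95% interval -1.06 to 0.53, limma adjusted p = 0.819). It was -0.57 without control 3 (95% interval -1.17 to 0.023, limma adjusted p = 0.127), -0.042 without control 1 and -0.18 without knockdown 1. Control 3 held 0.262 and 0.254 of the mean of controls 1 and 2 for SETD1A and SETD1B and 0.277 for ASH2L, against a median of 0.869 over all genes tested. Of all genes, 5.95%, 5.59% and 6.90% had a lower ratio than SETD1A, SETD1B and ASH2L. For the other 5 tested genes that share was 15.9% (KMT2A), 21.1% (KMT2C), 31.9% (KMT2E), 32.6% (KMT2B) and 75.4% (DPY30).

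KMT2A, the enzyme best known for keeping HOX genes active, measured 4.81, 5.34 and 1.98 FPKM across the controls, against 1.69, 3.71 and 3.41 across the knockdowns (chromosome 9, 45743566 to 45828559). Knockdown 1 and control 3 were the lowest libraries, and knockdowns 2 and 3 lay between these and controls 1 and 2. The log2 difference was -0.32 ± 0.41 (SE), with a 95% interval of -1.30 to 0.65 (limma adjusted p = 0.820). Without control 3 it was -0.67 (95% interval -1.41 to 0.082, limma adjusted p = 0.152). It was -0.18 without control 1, -0.12 without control 2 and -0.070 without knockdown 1.

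Its paralogue KMT2B (chromosome 6, 45146863 to 45166854) measured 3.19, 2.41 and 1.63 FPKM across the controls, against 2.03, 1.37 and 1.64 across the knockdowns. Controls 1 and 2 were again the highest libraries, but here knockdown 1 was the highest and knockdown 2 the lowest of its group, the reverse of KMT2A. The log2 difference of KMT2B was -0.33 ± 0.30 (SE), with a 95% interval of -1.03 to 0.37 (limma adjusted p = 0.787), and -0.50 without control 3 (limma adjusted p = 0.179). Without control 1 it was -0.17.

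KMT2C, an enhancer enzyme with a locus from 4993213 to 5279668 on chromosome 18, was the most abundant of the 6 catalytic members other than KMT2E. It measured 8.23, 10.2 and 4.10 FPKM across the controls, against 3.58, 6.76 and 7.18 across the knockdowns. As for KMT2A, control 3 and knockdown 1 were the lowest and controls 1 and 2 the highest. Its log2 difference was -0.29 (95% interval -1.28 to 0.71, limma adjusted p = 0.843), or -0.62 without control 3 (limma adjusted p = 0.190). It was -0.19 without control 1, -0.051 without control 2, -0.019 without knockdown 1 and -0.44 without knockdown 3. A pseudogene, LOC110257607, lies within its span. The pseudogene was at 1.37, 1.05 and 0.77 FPKM across the controls, against 0.40, 0.38 and 0.34 across the knockdowns.

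KMT2D, the other enhancer enzyme (chromosome 5, 15049827 to 15091622), was the weakest of the 10 genes. It measured 0.22, 0.17 and 0.16 FPKM across the controls, against 0.13, 0.14 and 0.17 across the knockdowns. The groups overlapped within a narrow range, and control 3 stood within the knockdowns. At a mean depth of 0.88 to 1.45 reads per base KMT2D fell under the minimum for testing. Fitted without that minimum, its log2 difference was -0.043 (95% interval -0.17 to 0.086, limma adjusted p = 0.832).

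KMT2E carries a SET domain but is not known to methylate H3K4 itself, and reads the mark through its PHD finger. With 22.4, 23.2 and 13.0 FPKM across the controls, against 15.7, 18.6 and 16.3 across the knockdowns, it was the third of the 10 in level (chromosome 9, 104876301 to 105007161). Control 3 lay below every knockdown. The log2 difference was -0.16 ± 0.34 (SE), with a 95% interval of -0.95 to 0.63 (limma adjusted p = 0.884), and -0.42 without control 3 (limma adjusted p = 0.210). Without control 1 or control 2 it was -0.048 or -0.023.

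KMT2E was also the only member with more than 1 transcript row above 0, with 5 of its 12 rows. In the other 9 genes a single row carried the whole level, out of up to 19 rows for KMT2C. The leading KMT2E row, XM_021102570.1, held 81.6%, 97.6% and 70.1% of the gene across the controls, against 75.6%, 72.1% and 68.4% across the knockdowns. Its control mean was 16.7 ± 6.88 FPKM and its knockdown mean 12.1 ± 1.16 FPKM (SD, n = 3 each), with a log2 difference of -0.35 (limma adjusted p = 0.808). Without control 3 this was -0.70 (limma adjusted p = 0.0914) and without control 2 it was -0.092. A further row, XM_021102569.1, was listed at 0 in controls 1 and 2 and in knockdown 1, and stood at 1.57 FPKM in control 3 and 4.46 and 2.96 in knockdowns 2 and 3. The row XM_021102567.1 measured 4.12, 0 and 2.07 FPKM across the controls, against 3.60, 0.38 and 0 across the knockdowns. The secondary rows thus differed from library to library within each group. LOC106504991, a gene annotated inside the KMT2E span, was at 0.13 to 1.15 FPKM. Of the 12013 transcript rows tested, 14, or 0.117%, passed limma's adjusted threshold of 0.05, and 0 of the 10 tested rows of these genes were among them. Without control 3, 1 of the 10 passed, the ASH2L row, beside 13.4% of all rows tested. The single DPY30 row had the same difference as its gene, 0.93, but did not pass among the rows (limma adjusted p = 0.0501).

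**Figure D2:**
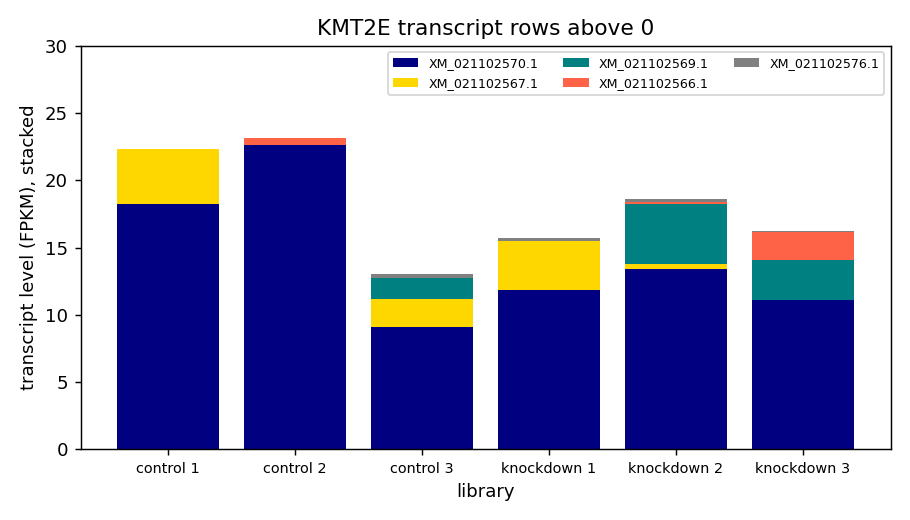
Level of each KMT2E transcript row above 0 (FPKM, stacked so that the bar height is the gene's level) in the 6 libraries. The leading row holds at least 68.4% of every bar, and the smaller rows change between libraries of the same group.

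Across the 10 genes, 8 reached a mean of 1 FPKM and were tested, and 2, KMT2D and WDR5, were not. None of the 8 passed limma's adjusted threshold with 6 libraries, and 0 had an unadjusted p under 0.05. Over all 10417 genes tested 0 passed as well, 0%, with 436 at an unadjusted p under 0.05. Of the 8, 7 had a log2 difference below 0 and DPY30 alone had one above 0. Their median was -0.28, beside a median of 0.01 over all genes tested, of which 50.4% were above 0. This split depends in part on the minimum of 1 FPKM. SETD1B reached it with a mean of 1.32 FPKM in controls and 0.85 in knockdowns. Fitted without the minimum, WDR5 was at 0.48 and KMT2D at -0.043. The groups overlapped for each of the 8, while they did not overlap for 7.24% of all genes tested.

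Leaving out control 3 brought 1 member past the threshold in each direction, ASH2L lower and DPY30 higher. Of all genes tested, 7.22% then passed as lower and 20.2% as higher, so a share of this size is not particular to these genes. The other 6 had log2 differences of -0.67 to -0.42 and adjusted p of 0.127 to 0.210 in limma. Weighting the libraries by their agreement with their group called ASH2L and DPY30, 2 of 8, and 32.7% of all genes. That fit gave control 3 a weight of 0.113, against 0.789 to 2.31 for the others, and so largely repeats its omission. For each of the 8 genes, control 3 lay nearer the knockdown mean than the mean of controls 1 and 2 on the log2 scale. The same held for 84.4% of all genes tested.

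**Figure D3:**
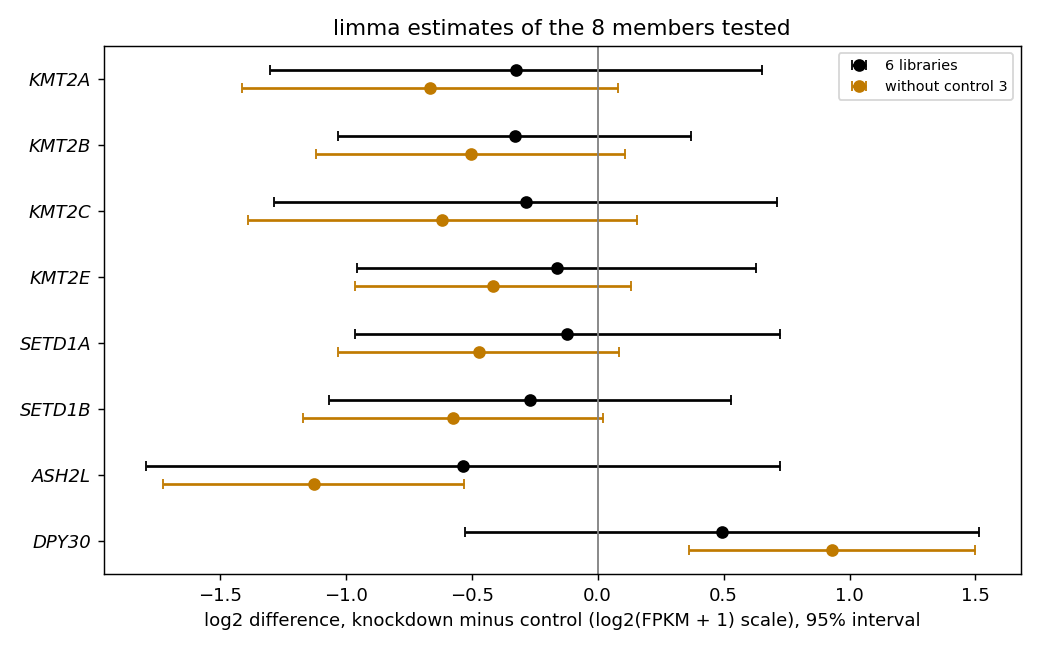
Log2 difference of the 8 tested genes, knockdown less control in log2(FPKM + 1), with its 95% interval from limma, for 6 libraries (black) and without control 3 (orange). With 6 libraries every interval crosses 0, and without control 3 those of ASH2L and DPY30 do not.

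**Figure D4:**
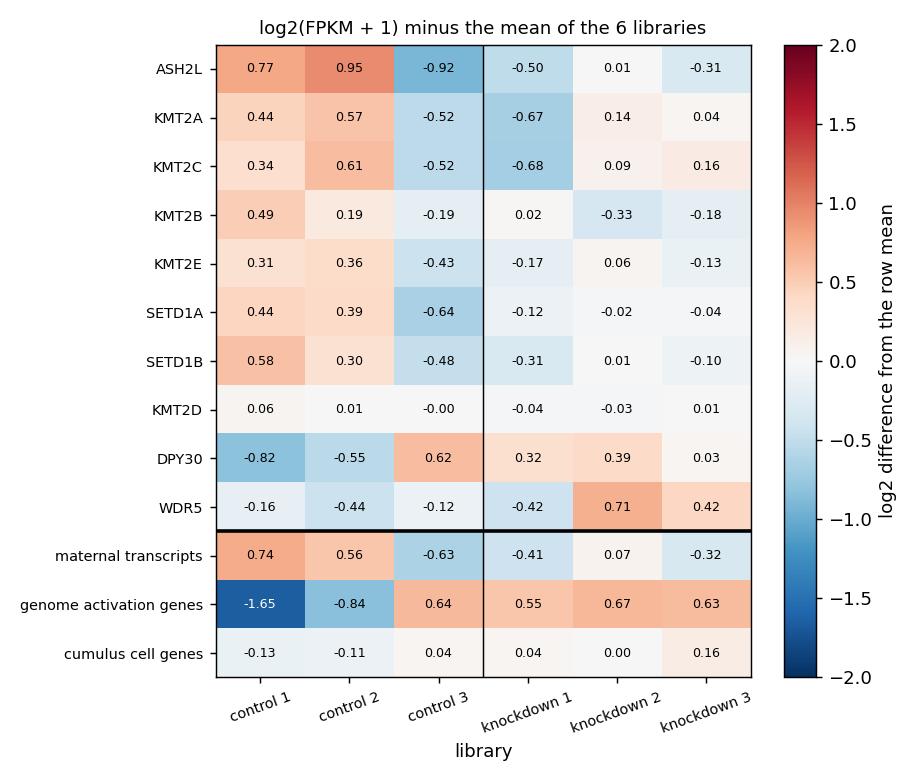
Each gene's log2(FPKM + 1) in the 6 libraries, as the difference from its own mean over the 6, above the same for the mean of 3 marker lists (red higher, blue lower). ASH2L and the maternal list are at 0.77 and 0.74 in control 1 and at -0.92 and -0.63 in control 3. DPY30 and the genome activation list are at 0.62 and 0.64 in control 3, but lie further apart elsewhere. They are at -0.82 and -1.65 in control 1, -0.55 and -0.84 in control 2, and 0.03 and 0.63 in knockdown 3.

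The order of levels was steady for most members. By mean FPKM it ran DPY30, ASH2L, KMT2E, KMT2C, KMT2A, KMT2B, SETD1A, SETD1B, WDR5 and KMT2D. KMT2E stood above KMT2C, KMT2C above KMT2A, SETD1A above SETD1B, and ASH2L above KMT2E in all 6 libraries. KMT2A exceeded KMT2B in 5 of 6, and KMT2B exceeded SETD1A in 5 of 6. DPY30 exceeded ASH2L in 4 of 6, and SETD1B exceeded WDR5 in 3 of 6, so these neighbours have no fixed order here. Summed over the 6 catalytic genes without KMT2E, the level was 20.9, 21.9 and 8.94 FPKM across the controls, against 9.37, 14.5 and 14.7 across the knockdowns. The 3 core genes summed to 76.1, 88.2 and 96.4 FPKM across the controls, against 85.3, 98.1 and 76.6 across the knockdowns, a sum in which the opposite courses of ASH2L and DPY30 offset each other.

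Ratios between members with a shared role were compared for 4 pairs, as log2 of (FPKM + 1) over (FPKM + 1). SETD1A to SETD1B averaged 0.25 ± 0.14 among controls against 0.40 ± 0.11 among knockdowns (SD, n = 3; two-sided exact permutation p = 0.3, adjusted p = 0.667 over the 4). KMT2A to KMT2B was 0.52 ± 0.36 and 0.52 ± 0.61 (SD, n = 3; exact permutation p = 1, adjusted p = 1), and in knockdown 1 alone KMT2B exceeded KMT2A, with a ratio of -0.17. KMT2C to KMT2D was 2.77 ± 0.58 and 2.53 ± 0.44 (SD, n = 3; exact permutation p = 0.5, adjusted p = 0.667). With KMT2D at 0.13 to 0.22 FPKM, the added 1 outweighs its level and this ratio mostly follows KMT2C. The plain FPKM ratios ran from 25.0 to 59.7. ASH2L to WDR5 was 4.62 ± 1.15 and 3.61 ± 0.37 (SD, n = 3; exact permutation p = 0.4, adjusted p = 0.667). WDR5 was likewise under the minimum for testing and came from a non-coding row, and the plain ratios ran from 16.6 to 297. The smallest p that 3 against 3 libraries allow is 0.1, so no ratio could have passed 0.05. Without control 3, the differences between groups were 0.10, -0.16, -0.56 and -1.66 in the same order.

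The other subunits and partners of the complexes were taken as a list of 13, of which 10 were tested, 9 below 0 and 1 above, with a median of -0.39 beside 0.01 over all genes. None passed with 6 libraries. BOD1, a partner of the SETD1B complex also known for its role in chromosome alignment, measured 159, 102 and 56.8 FPKM across the controls, against 28.0, 38.3 and 36.3 across the knockdowns. These groups did not overlap, as for 7.24% of all genes tested. That also held for the partners PAXIP1 and CXXC1, and in the lists below for RTF1, RCOR3 and BPTF. The log2 difference of BOD1 was -1.50 ± 0.43 (SE; unadjusted p = 0.00968, limma adjusted p = 0.775). PAXIP1, a subunit of the KMT2C and KMT2D complexes, measured 1.49, 1.07 and 2.60 FPKM across the controls, with a mean of 1.72 ± 0.79, against 0.93 ± 0.057 across the knockdowns (SD, n = 3). Its log2 difference of -0.46 was -0.24 without control 3 (limma adjusted p = 0.775 and 0.475). Without control 3, 3 of the 10 passed as lower, namely BOD1, NCOA6 and RBBP5, and 0 as higher, beside 7.22% and 20.2% of all genes tested.

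RBBP5, the remaining core subunit and the partner that ASH2L binds, is named after its values were seen. It measured 161, 172 and 53.4 FPKM across the controls, against 66.3, 86.0 and 82.9 across the knockdowns. Like ASH2L, it was highest in controls 1 and 2 and lowest in control 3. Its log2 difference was -0.55 (limma adjusted p = 0.787), or -1.09 without control 3 (limma adjusted p = 0.0133). MEN1, HCFC1 and PAGR1, further partners, were each below a mean of 1 FPKM and were not tested.

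Upstream of H3K4 methylation, ubiquitin is placed on histone H2B by RNF20 and RNF40 with the PAF complex. Of 11 genes tested in that list, 7 were above 0 and 4 below, with a median of 0.12 and none called. RTF1, a PAF-associated factor, measured 1.94, 5.86 and 14.8 FPKM across the controls, against 15.4, 37.3 and 18.4 across the knockdowns (log2 difference 1.75, limma adjusted p = 0.775). WDR61, a further subunit, measured 3.04, 4.48 and 37.3 FPKM across the controls, against 27.7, 30.5 and 29.6 across the knockdowns (log2 difference 1.68, limma adjusted p = 0.775). For WDR61 control 3 lay above every knockdown, and for RTF1 just below them. Without control 3, RTF1, WDR61 and LEO1, 3 of 11, passed as higher and 0 as lower, beside 20.2% and 7.22% of all genes tested. WDR61 then differed by 2.68, and by 1.06 without control 1, while RTF1 differed by 1.14 without control 1.

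The H3K4 demethylases and their corepressors had 4 of 7 tested genes above 0 and 3 below, a median of 0.10 and none called. KDM5C, which removes the mark, was at 0.96 ± 1.0 and 2.67 ± 0.81 FPKM (SD, n = 3), and RCOR1, the partner of KDM1A, at 2.17 ± 0.33 and 1.20 ± 0.58 FPKM (SD, n = 3). Without control 3, KDM5B and KDM5C, 2 of 7, passed as higher and 0 genes as lower, beside the same 20.2% and 7.22% of all genes. In controls 1 and 2, KDM5B was at 0.058 and 0.18 FPKM and KDM5C at 0.14 and 0.66. Both reached the minimum of 1 FPKM only through control 3 and the knockdowns, so these calls carry little weight. Of the proteins that bind the trimethyl mark, 5 of 11 tested were above 0 and 6 below, with a median of -0.16 and none called. BPTF, a subunit of a nucleosome remodeller, was at 7.98 ± 2.48 and 12.8 ± 0.90 FPKM (SD, n = 3). CHD1, a remodeller tied to elongation, measured 14.6, 11.3 and 76.3 FPKM across the controls, against 42.1, 50.7 and 50.5 across the knockdowns. These 2 of 11 readers passed as higher without control 3, and 0 as lower, again beside 20.2% and 7.22% of all genes. Among other enzymes reported to act on H3K4, SMYD3 was the single tested gene, while SMYD1 was listed at 0 throughout. SMYD3 measured 2.38, 1.09 and 6.01 FPKM across the controls, with a mean of 3.16 ± 2.55, against 4.50 ± 1.58 across the knockdowns (SD, n = 3). Its log2 difference of 0.54 (limma adjusted p = 0.788) was 1.0 without control 3 (limma adjusted p = 0.073) and 0.13 without control 2. With weighted libraries it was 1.16 and passed (limma adjusted p = 0.0259), beside 32.7% of all genes tested. Of the other genes named from these lists by smallest p, BOD1, RTF1, WDR61, KDM5C, BPTF and CHD1 passed there too. PAXIP1 and RCOR1 did not.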

How the data were processed

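Tools listed in the submitters' processing notes are StringTie 2.1.7, Bowtie2 2.3.5 and cutadapt, with the build Sscrofa11.1 and no role or order. The sources used here give neither the strand setting nor the treatment of multiply mapped reads. The deposited table has FPKM, TPM and coverage columns for 81774 transcripts, per the file headers. Deposited FPKM is scaled for transcript length and library, the deposited TPM rescales it to a fixed total, and the deposited coverage is a signal of mean read depth. Depth in reads is unknown.

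Columns were matched to samples by name (SL columns to siL titles, an abbreviation that no label explains), and 9 unmatched value columns (headed ST) were not used. A pair of further sheets was not used, since their matched columns were identical to the main table. In 1758 rows the name cell held a value, and 129 rows with date-like names were renamed through their RefSeq accession. FPKM was summed per gene. The 10417 genes whose mean reached 1 FPKM were tested with limma 3.58.1 (R 4.3.3) on log2(FPKM + 1), two-sided, with a mean-variance trend and Benjamini-Hochberg adjustment at 0.05. Coordinates are those of the RefSeq gene table for Sscrofa11.1. Exact permutation tests used scipy 1.17.1. The limma script was tested on simulated data.

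The 10 genes, the lists and the tests were chosen with earlier results of these data known. All 10 are named. Of each pathway list the text names members past the adjusted threshold, or otherwise the 2 with the smallest p, and of each gene the most abundant transcript. Alternatives covered pseudocounts, filters, scalings, TPM, trend, array weights, the replicate block and leaving out each library.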

Additional observations from a re-analysis of the deposited data

How the results depend on the processing

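In limma, 0 genes and 0 members passed under 15 of 17 alternatives, 10 of them on all 6 libraries and 5 leaving out 1 library. They tested 10417 genes and 8 members, except that no filter tested 24607 genes and 10 members, and a minimum mean of 5 FPKM tested 5976 genes and 4 members. The exceptions were array weights, which passed 3405 genes and 2 members, and the omission of control 3. Leaving out each library in turn, the genes that passed ranged from 0 to 2854, the members from 0 to 2 and the members' transcript rows from 0 to 1, the higher value each time without control 3, where 13.4% of all transcript rows passed. Same-numbered deviations from the group means correlated at 0.085, 0.063 and 0.226, and differently numbered ones at -0.189 to 0.111. These values do not settle whether replicate numbers pair the libraries, since the control mean they use includes control 3. A fit with the replicate number as a block passed 0 genes, 0 members and 0 member transcript rows. Of 132 member values recomputed, 126 kept direction and call, 4 became called (ASH2L and DPY30) and 2 turned sign. Quantile normalization moved the median of all genes to -0.17 and the partner list's median from -0.39 to -0.56. No member changed sign under any scaling.

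SETD1A and its single transcript row turned to 0.068 without control 1 and 0.043 without control 2, in a leave-one-out range from -0.47. The KMT2E row XM_021102567.1 turned to 0.081 without control 1 and 0.0094 without knockdown 3, in a range from -1.10. The KMT2A to KMT2B ratio difference turned from 0.0050 to -0.031 with a pseudocount of 5, and its leave-one-out values ran from -0.23 to 0.35 (-0.018 without control 1, -0.16 without control 3, -0.23 without knockdown 2, -0.10 without knockdown 3). KMT2C to KMT2D ranged from -0.56 to 0.013, with 0.000 without control 2. SETD1A to SETD1B stayed at 0.088 to 0.23 and ASH2L to WDR5 at -1.66 to -0.57. List medians ranged from -0.48 to -0.23 for the partners, -0.0061 to 0.25 for the demethylases, 0.091 to 0.49 for H2B ubiquitylation and -0.44 to 0.13 for the readers. The cause of these changes was not tested.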
